A study of Ciona robusta with 133 samples.

Results

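The passage of the anterior animal neural precursor from the 32-cell to the 64-cell stage was followed in the ascidian Ciona robusta, by setting single a7.10 cells against single a6.5 cells. The cells were taken by their labels, with a7.10 at 64 cells and a6.5 at 32 cells, which gave 15 of the 133 libraries of the series. The 8 a7.10 libraries came from 8 embryos, all from the right side. The 7 a6.5 libraries came from 5 embryos, of which embryos 2 and 5 gave a cell from each side, embryo 1 a right cell and embryos 3 and 4 a left cell. The labels name no treatment, genotype or strain for any group. Each library holds 1 hand-dissected cell, and the 2 stages come from different embryos. The labels give no spawning, parent or date, so the stage and the collection of embryos cannot be told apart in any difference below. The same time step in 2 other places served for comparison, namely a7.11 (6 embryos) against a6.6 (5 embryos) in the same lineage, and A7.4 (4 embryos) against A6.2 (6 embryos) in the A line.

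In ascidian embryos the cell divisions follow an invariant pattern, and cells carry Conklin names in which small a marks the anterior animal and capital A the anterior vegetal lineage. The a6.5 cell is known for its neural induction: FGF from vegetal neighbours acts through the maternal factors Ets and Gata and switches on Otx, while a6.6 receives less of the signal and its descendants form epidermis. The a7.10 cell is a daughter of a6.5 and contributes to the anterior nervous system, a7.11 is a daughter of a6.6, and A7.4 descends from A6.2 and contributes to the nerve cord. Early cleavage cells inherit maternal RNA from the egg, which is cleared while zygotic transcripts accumulate. The deposited files name genes by KH identifiers only and do not pair them with gene names. The labelled cell types were therefore not checked against their defining markers, no gene is given a role, and no sequence is shown.

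Total counts were 5319386 to 10980249 per a7.10 library (median 8169290) and 7023652 to 11366385 per a6.5 library (median 8905065). Libraries resembled those of their own type more than those of the other. Pearson's r of log2(CPM + 1) across genes was 0.940 to 0.955 between a7.10 libraries, 0.949 to 0.970 between a6.5 libraries of different embryos, and 0.926 to 0.943 between the types. The left and right a6.5 cells of 1 embryo were the most alike, with r of 0.971 in embryo 2 and 0.975 in embryo 5. No library stood apart from its group, and none was a duplicate of another. Counts of the 2 cells of an embryo were summed, so n is the number of embryos. Levels are CPM, read counts scaled by the total of the sample with TMM factors, that is, shares of the reads of a sample. A lower share and less RNA of a gene per cell cannot be told apart from these values.

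Of 10280 genes tested, 1738 differed between a7.10 and a6.5, which is 16.9% of them (edgeR quasi-likelihood test, adjusted p under 0.05). In a7.10 805 genes were higher, 7.83% of those tested, and 933 were lower, 9.08% of those tested. Most changes were modest. Of the genes that rose, 496 changed by less than 2-fold and 64 by more than 8-fold, with a median log2 fold change of 0.85 and quartiles of 0.64 and 1.29. Of the genes that fell, 654 changed by less than 2-fold and 59 by more than 8-fold, with a median of -0.75 and quartiles of -1.07 and -0.56. The median over all genes tested was 0.01. With right-side cells alone, which leaves 3 a6.5 embryos, 713 genes passed, and 673 of them were among the 1738. A test against a change of 1.5-fold in place of 0 called 241 genes, 123 higher and 118 lower in a7.10.

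**Figure D1:**
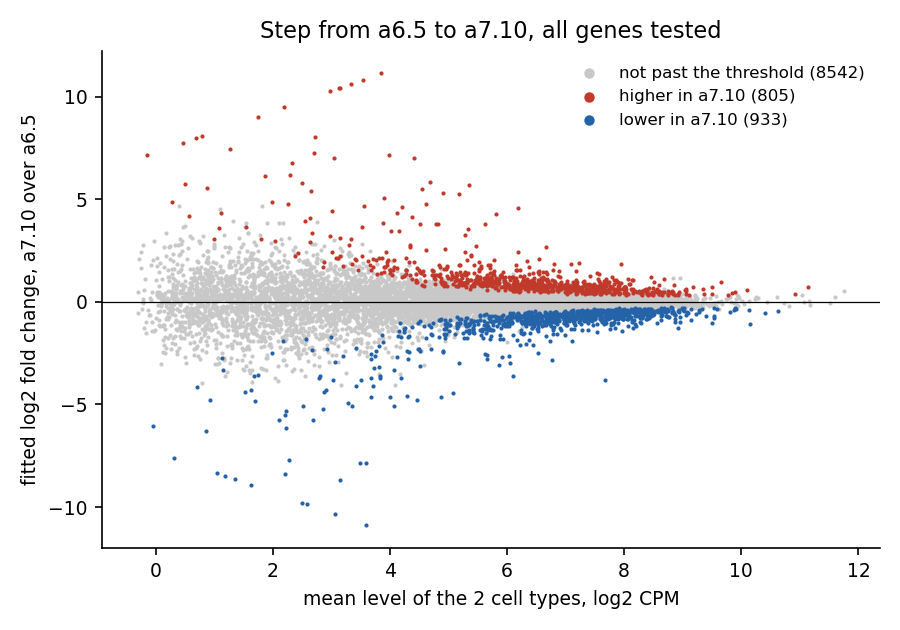
Each point is 1 of the 10280 genes tested, with the mean level of a7.10 and a6.5 in log2 CPM on the horizontal axis and the fitted log2 fold change of a7.10 over a6.5 on the vertical axis. The 805 genes higher in a7.10 (red) and the 933 lower (blue) form narrow bands close to 0 among abundant genes, and changes of over 8-fold lie mostly among scarcer genes.

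The balance of rising and falling genes differed with abundance. Among the 3465 genes with a mean of 100 CPM or more, 579 fell (16.7%) and 349 rose (10.1%), with median log2 fold changes of -0.62 and 0.64. Among the 3734 genes between 20 and 100 CPM, 273 fell (7.31%) and 359 rose (9.61%), with medians of -1.01 and 0.98. Below 20 CPM the calls were few and large. Between 5 and 20 CPM 57 of 1650 genes fell and 76 rose, and between 1 and 5 CPM 23 of 1401 fell and 20 rose, with medians of -5.31 and 5.21. The genes that rose held 12.7 to 13.5% of each a7.10 sample's CPM and 7.56 to 7.99% of each a6.5 sample's. Those that fell held 11.7 to 12.7% in a7.10 and 18.3 to 19.4% in a6.5. These shares describe genes that were called in the same samples and are not a test.

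For a subset the embryos of the 2 types did not overlap. Every a7.10 embryo lay above every a6.5 embryo in 327 genes, 3.18% of those tested, and 312 of them were among the 805 called higher. Every a7.10 embryo lay below every a6.5 embryo in 535 genes, 5.2% of those tested, and 493 of them were among the 933 called lower. Of each direction, 2 identifiers are named below, the called gene without overlap that had the largest fold change and the one with the smallest p among those with over 3 counts in every embryo.

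The largest rise without overlap was that of KH.C4.386. Its levels in the 8 a7.10 embryos ran from 8.84 to 43.6 CPM with a median of 32.5, and it had no count in any of the 5 a6.5 embryos. All a7.10 embryos had reads of it, with embryos 3 and 6 the lowest at 8.84 and 14.4 CPM. Its mean was 29.0 ± 11.8 CPM in a7.10 (SD, n = 8). From counts pooled over embryos, 1836 in a7.10 and 0 in a6.5, its level in a7.10 was at least 602.7-fold higher, with a floor of 3 counts over the a6.5 group (adjusted p = 5.21e-06, edgeR). KH.C4.687 was a gene already present at 32 cells. It stood at 160.1 to 315.9 CPM in the a7.10 embryos (median 234.9), against 50.5, 70.8, 67.6, 61.4 and 66.01 CPM in a6.5 embryos 1 to 5. The naming rule required no overlap, and the lowest a7.10 embryo, at 160.1 CPM, lay above the highest a6.5 embryo, at 70.8 CPM. Its means were 235.4 ± 44.8 CPM in a7.10 (n = 8) and 63.3 ± 7.91 CPM in a6.5 (n = 5), a log2 fold change of 1.90 ± 0.16 SE (adjusted p = 3.94e-06, edgeR).

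KH.C7.218 was the largest fall without overlap. It had no count in any of the 8 a7.10 embryos, against 22.3, 27.2, 25.9, 24.1 and 21.8 CPM in a6.5 embryos 1 to 5. The 5 a6.5 embryos were close to each other, with a mean of 24.3 ± 2.29 CPM (SD, n = 5). From counts pooled over embryos, 0 in a7.10 and 1535 in a6.5, its level in a7.10 was at least 519.6-fold lower, with a floor of 3 counts over the a7.10 group (adjusted p = 2.44e-05, edgeR). KH.L30.4 fell without being lost. It stood at 27.3 to 44.6 CPM in the a7.10 embryos (median 35.2), against 156.0, 117.4, 114.1, 118.2 and 142.3 CPM in a6.5 embryos 1 to 5. The groups did not overlap, which the naming rule required. The means of KH.L30.4 were 35.5 ± 5.69 CPM in a7.10 and 129.6 ± 18.6 CPM in a6.5 (n = 8 and 5, log2 fold change -1.87 ± 0.16 SE, adjusted p = 3.94e-06, edgeR).

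**Figure D2:**
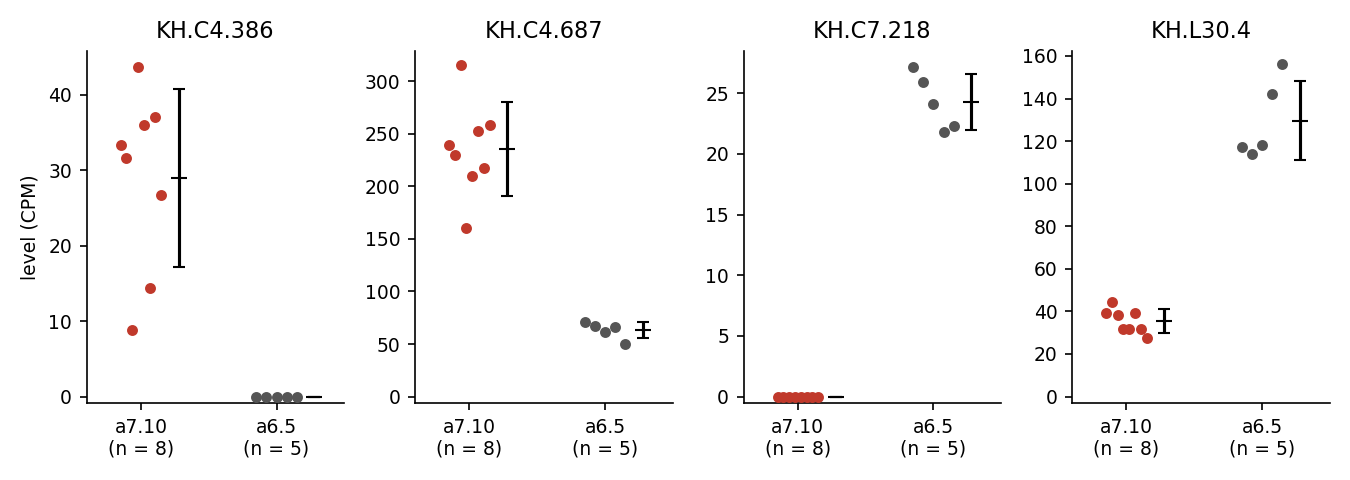
Levels in CPM (vertical axes, each from 0) of the 4 named genes, with 1 point per embryo for a7.10 (red) and a6.5 (grey), and bars for the mean ± SD. KH.C4.386 and KH.C4.687 lie higher in all 8 a7.10 embryos than in any of the 5 a6.5 embryos, and KH.C7.218 and KH.L30.4 lie lower. The rule that named these genes required this separation.

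Under a strict definition, few of the 10280 genes tested were gained or lost. Their number depends on that definition, and changes of over 8-fold were called in more genes, 64 higher and 59 lower. Among the genes that rose, 9 had at most 3 counts over all a6.5 embryos and a mean of at least 5 CPM in a7.10, and 8 of these had no count in a6.5 at all. Their means in a7.10 were 6.69 to 29.0 CPM with a median of 17.4. They varied much between embryos, with a coefficient of variation (SD over mean) of 40.9 to 139%. In 3 of the 9, every a7.10 embryo had a count, and each a7.10 embryo had counts of 5 to 9 of them. Among the genes that fell, 9 had at most 3 counts over all a7.10 embryos and at least 5 CPM in a6.5, and 6 of these had no count in a7.10. Their means in a6.5 were 5.13 to 24.3 CPM with a median of 11.3. All 9 had counts in every a6.5 embryo, which the filter on low counts fixed in advance. It keeps a gene only with enough reads in at least 5 samples, the size of the smaller group. Gained genes could pass it with 5 of the 8 a7.10 embryos, so the evenness of the 2 classes is not compared. The number of lost genes was 23 without a filter on low counts and 3 with a stricter one. That of gained genes was 5 by limma voom and 15 with right-side cells alone.

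The 9 gained genes were not abundant earlier in the lineage, and most of them also had reads in the epidermal line. None reached 5 CPM in a5.3, the precursor at 16 cells, and 4 had at most 3 counts there. In a6.6, the partner of a6.5, 4 of the 9 had at most 3 counts, 4 lay between this and 5 CPM, and 1 reached 5 CPM. In A6.2 3 of the 9 had at most 3 counts and 1 reached 5 CPM. Gained thus refers to a7.10 against a6.5 only. At 64 cells 6 of the 9 reached 5 CPM in a7.11, and 1 did in A7.4. At least 5 CPM was found for 4 of them in a8.19 at 112 cells, for 4 in a9.37+a9.38 at the neural plate stage, and for 3 in both. Of the 9 lost genes, 6 stood at 5 CPM or more in a5.3. In a7.11 7 of the 9 had at most 3 counts and none reached 5 CPM, while 5 reached 5 CPM in A7.4 and 5 in a8.19. Thus most of the lost genes were also at the floor in the partner cells of the same stage, and 8 of the 9 had over 3 counts in a8.19, whose cells came from other embryos.

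The levels of the named genes were followed over 9 cell types, in which all samples were scaled together. KH.C7.218 had a mean of 11.8 ± 7.57 CPM in a5.3 (n = 5), 24.0 ± 2.28 in a6.5, 0 in a7.10, 5.35 ± 3.67 in a8.19 (n = 4) and 42.6 ± 12.5 in a9.37+a9.38 (n = 3). It had no count in a7.11 either (n = 6), against 27.2 ± 11.8 CPM in a6.6 (n = 5). Its A-line means were 8.66 ± 17.3 CPM in A7.4 (n = 4) and 18.9 ± 20.9 CPM in A6.2 (n = 6). The A-line embryos were uneven, at 0 to 34.54 CPM in A7.4 (median 0.04094) and 0 to 43.24 CPM in A6.2 (median 16.97). The lowest embryo was at 0 in a5.3 and in a8.19 too. KH.L30.4 also had its lowest a-line mean at a7.10. Its levels were 116.7 ± 27.2 CPM in a5.3, 127.9 ± 18.3 in a6.5, 35.0 ± 5.55 in a7.10, 142.6 ± 21.1 in a8.19 and 67.6 ± 9.18 in a9.37+a9.38. Among these a-line stages, the SD ranges of a5.3, a6.5 and a8.19 overlapped and that of a7.10 lay below all of them. KH.L30.4 stood at 35.4 ± 13.2 CPM in a7.11, against 125.1 ± 26.0 CPM in a6.6. Its A-line mean was 128.3 ± 28.6 CPM for A7.4 and 87.1 ± 34.2 CPM for A6.2.

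The 2 named genes that rose had their highest mean at a7.10 among these stages. KH.C4.386 averaged 0.0953 ± 0.150 CPM in a5.3, 0 in a6.5, 28.5 ± 11.7 in a7.10, 0.538 ± 1.08 in a8.19 and 6.42 ± 10.3 in a9.37+a9.38. KH.C4.687 averaged 75.0 ± 18 CPM in a5.3, 62.5 ± 8.03 in a6.5, 231.9 ± 44.5 in a7.10, 150.4 ± 42.2 in a8.19 and 41.6 ± 2.46 in a9.37+a9.38. Its embryos overlapped between a7.10 (158.5 to 313.0 CPM) and a8.19 (95.4 to 190.3 CPM). In a7.11 the levels were those of a7.10 within the spread, at 30.3 ± 19.4 CPM for KH.C4.386 and 213.3 ± 29.1 CPM for KH.C4.687. No test was made on these levels in the other cell types.

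The genes called in a7.10 were mostly present throughout the a line. Of the 805 that rose, 723 (89.8%) had at least 5 CPM in a5.3, against 83.5% of all genes tested. Their median level was 61.6 CPM in a5.3, 59.2 in a6.5, 109.4 in a7.10, 78.7 in a8.19 and 74.2 in a9.37+a9.38. Of the 933 that fell, 905 (97.0%) had at least 5 CPM in a5.3. Their median was 152.5 CPM in a5.3, 159.6 in a6.5, 93.9 in a7.10, 124.0 in a8.19 and 132.5 in a9.37+a9.38. The median of all genes tested stayed between 52.2 and 57.1 CPM in the 9 cell types. For both lists the a7.10 median was the extreme of the a line, which the choice of the lists on a7.10 and a6.5 favours.

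A midpoint between the a7.10 and a6.5 means was then taken for each gene, on the log2(CPM + 0.5) scale, and the other cell types were placed on either side of it. Of the genes that rose, 14.5% lay on the a7.10 side in a5.3, 48.6% in a8.19 and 40.7% in a9.37+a9.38. Of the genes that fell, 17.9% lay on the a7.10 side in a5.3, 42.4% in a8.19 and 45.1% in a9.37+a9.38. In a7.11 82.9% of the genes that rose and 86.3% of those that fell lay on the a7.10 side, against 6.83% and 4.07% in a6.6. In A7.4 the shares were 31.3% and 22.4%, against 30.9% and 31.1% in A6.2. In a8.19, at the next stage, 51.4% of the genes that rose and 57.6% of those that fell lay on the a6.5 side. The A-line cells were mostly on that side at both stages. The shares there were 69.1% and 68.9% in A6.2 and 68.7% and 77.6% in A7.4. The lists and the midpoints were taken from the same a7.10 and a6.5 samples, and no share over all genes was computed. These shares are therefore a description and not a test.

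**Figure D3:**
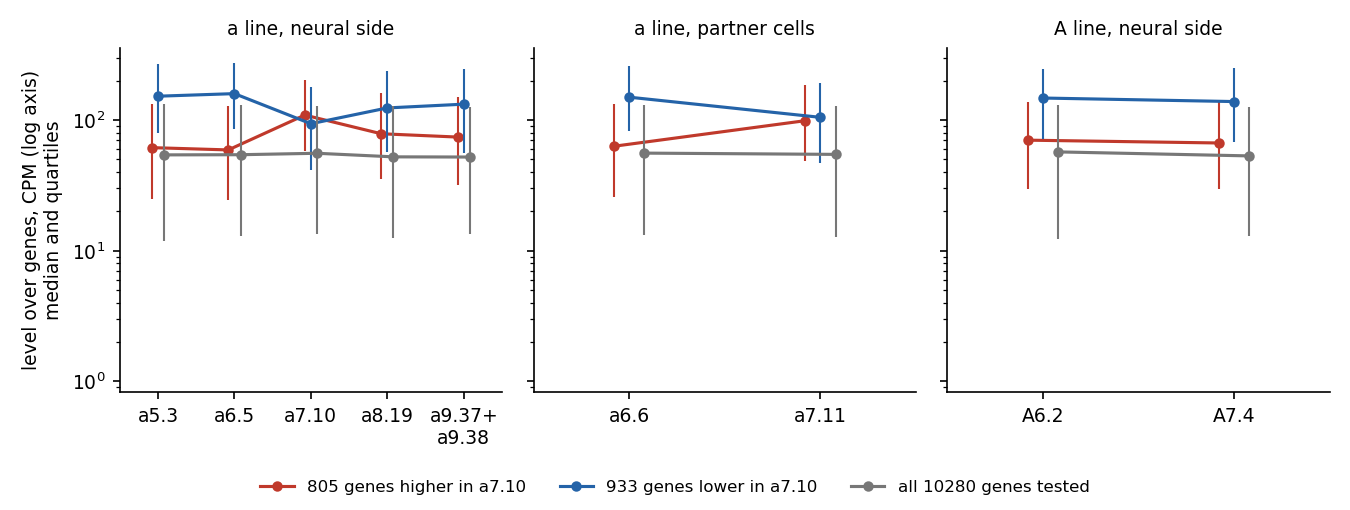
Median level in CPM (log axis, bars from the lower to the upper quartile over genes) of the 805 genes higher in a7.10 (red), the 933 lower (blue) and all 10280 tested (grey). In the a line the red medians are highest and the blue ones lowest at a7.10 (109.4 and 93.9 CPM), a6.6 and a7.11 repeat the change, and A6.2 and A7.4 show little of it.

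The step in the partner cells resembled that of the neural side. In the fit of a7.10, a6.5, a7.11 and a6.6 together, a7.11 was higher than a6.6 in 583 genes (5.25% of 11106) and lower in 681 (6.13%). Of the 805 genes that rose in a7.10, 354 were also called higher in a7.11, which is 44.0% of this list and 61.6% of the 575 genes called higher in a7.11 among the 10280, and 1 was called lower. The log2 change in the partner was above 0 for 764 of the 805 (94.9%, against 48.4% of all genes tested), with a median of 0.61. Of the 933 genes that fell, 389 were also called lower in a7.11, 41.7% of this list and 64.1% of the 607 called lower there, and none was called higher. The change was below 0 for 896 of the 933 (96.0%, against 51.5% of all), with a median of -0.52. By the embryo numbers of the labels, 6 a7.11 cells share embryos with a7.10 cells and 5 a6.6 embryos with a6.5 cells, so the 2 steps are not independent. Without a6.6 embryo 4 the 1264 calls between a7.11 and a6.6 were 811.

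No gene passed the test of the difference between the 2 steps, 0% of 11106, and 666 had an unadjusted p under 0.05 (edgeR; smallest adjusted p 0.0517). DESeq2 called 14 genes, 7 in each direction, limma voom called 0, and edgeR with RLE size factors or a stricter filter called 1. Leaving out a7.10 embryo 6 gave 4 calls and leaving out a6.5 embryo 2 gave 3. With the embryo within each stage as a block, which pairs the partner cells, 0 genes passed and 826 had an unadjusted p under 0.05 (edgeR; smallest adjusted p 0.183). The median SE of the difference was 0.41 on the log2 scale without the block and 0.39 with it, and genes that miss the threshold are not shown to change alike. For KH.C4.687 the step was 0.04 ± 0.23 SE larger on the neural side, and for KH.L30.4 it was 0.05 ± 0.30 SE more negative (adjusted p = 0.99988 for both, edgeR). KH.C4.386 had no count in a6.5 or a6.6, and KH.C7.218 none in a7.10 or a7.11. Their SE of the difference was 137.3 and 198.8, so the test cannot compare their 2 steps.

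The step in the A line was unlike that of the a line. In the fit with A7.4 and A6.2, A7.4 was higher than A6.2 in 427 genes (3.72% of 11480) and lower in 415 (3.61%). Of the 805 genes that rose in a7.10, 64 were called higher in A7.4 (7.95%, against 3.83% of all tested). In the opposite direction 34 were called lower (4.22%, against 3.99% of all). A change above 0 was found in 435 (54.0%, against 50.1% of all). Of the 933 genes that fell, 54 were called lower in A7.4 (5.79%, against 3.99% of all). In the opposite direction 58 were called higher (6.22%, against 3.83% of all). A change below 0 was found in 460 (49.3%, against 49.8% of all). The medians of the change in the A line were 0.05 and 0.01 for the lists. In all 3 steps 36 of the 10280 genes were called higher and 30 lower. The 842 calls between A7.4 and A6.2 were 498 without A7.4 embryo 3, 498 without embryo 4 and 489 without embryo 5.

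**Figure D4:**
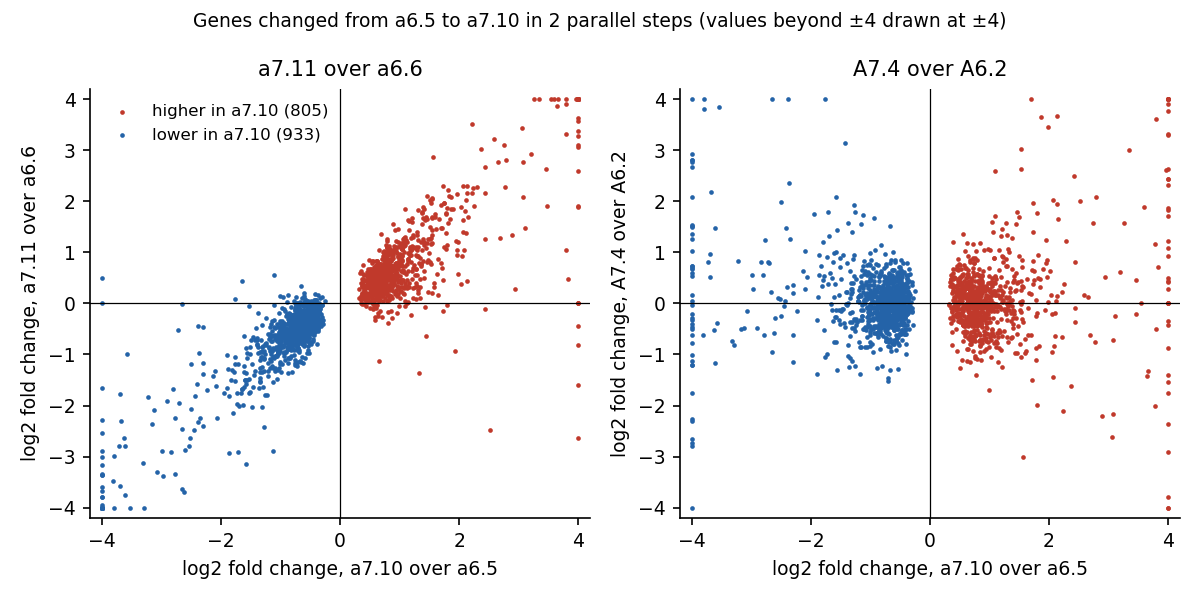
Log2 fold change of a7.10 over a6.5 (horizontal) against that of a7.11 over a6.6 (left panel, vertical) and of A7.4 over A6.2 (right panel, vertical) for the 805 genes higher (red) and the 933 lower (blue) in a7.10, with values beyond 4 in either direction drawn at 4. In the left panel 94.9% of the red points lie above 0 and 96.0% of the blue below it, while in the right panel the lists straddle 0, with 54.0% and 49.3%.

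The difference between the a-line and the A-line step passed in 1298 of 11480 genes, 11.3% of them. In 580 the change was more positive in the a line, with a median difference of 1.29 on the log2 scale. In 531 of these the fitted a-line change was above 0 and the A-line change below it. In 718 the change was more positive in the A line, with a median of -1.36. In 630 of these the fitted a-line change was below 0 and the A-line change above it. Choosing genes on the difference favours fitted changes of opposite sign, so these counts are not read as opposite regulation. In the same fit the a-line step itself was called in 277 of the 580 and 465 of the 718. The A-line step itself was called in 217 of the 580 and 205 of the 718. Within the lists, 278 of the 805 genes that rose in a7.10 (34.5%) and 390 of the 933 that fell (41.8%) passed, against 11.5% of all genes tested. The lists were chosen on the a-line step, which is a term of this difference, so nothing about the lists is read from these shares. Of the named genes, KH.L30.4 had an A-line change of 0.57 ± 0.23 SE against its fall in the a line, a difference of -2.43 ± 0.31 SE (adjusted p = 2.66e-05, edgeR). KH.C4.386 rose in the A line too, to 6.57 ± 4.63 CPM in A7.4 (n = 4), against 0.685 ± 1.36 CPM in A6.2 (n = 6), and by less than in the a line (adjusted p = 0.00658, edgeR). A-line and a-line cells are not stated to share embryos, so lineage and collection cannot be told apart here.

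The largest difference toward the a line was that of KH.C11.315, 1 of the 9 gained genes. It had 29.2, 7.68, 7.95, 0, 26.0, 0, 0.424 and 1.43 CPM in a7.10 embryos 1 to 8 and no count in any a6.5 embryo. It had no count in the 4 A7.4 embryos, against 0 to 5.62 CPM in the 6 A6.2 embryos (median 2.11; adjusted p of the step difference 0.00168, edgeR). The a7.10 embryos were thus uneven, with 2 of 8 at 0. In partner cells it had no count in the 6 a7.11 embryos, against at most 0.235 CPM in 5 a6.6 embryos, though its step did not pass the test of the difference from the partner step. At 112 cells it stood at 16.5, 30.6, 20.95 and 19.2 CPM in the 4 a8.19 embryos.

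The genes named for a more positive A-line change differed between embryos of 1 type. KH.C9.744 was at 0 in 7 a7.10 embryos and at 0.117 CPM in embryo 3, against 1.38, 0.314, 107.4, 103.8 and 93.2 CPM in a6.5 embryos 1 to 5. KH.L22.71 was at 0 in 7 a7.10 embryos and at 0.458 CPM in embryo 4, against 0, 0, 30.4, 43.9 and 31.0 CPM in a6.5 embryos 1 to 5. Both were thus high in a6.5 embryos 3, 4 and 5 and at or near 0 in embryos 1 and 2. The a6.6 cells of the same embryos showed the same division, with 0, 0.182, 106.8, 88.9 and 92.4 CPM for KH.C9.744 and 0, 0, 43.2, 29.8 and 33.3 CPM for KH.L22.71 in embryos 1 to 5. In the A line KH.C9.744 stood at 107.3, 0, 0.0641 and 0.138 CPM in A7.4 embryos 2 to 5, against at most 0.443 CPM in A6.2, and KH.L22.71 at 44.3, 10.6, 0.962 and 0.830 CPM in the same A7.4 embryos, against 0 in all A6.2 embryos. The step differences passed (adjusted p = 0.000248 and 0.000168, edgeR), but that of KH.C9.744 did not by limma voom (adjusted p = 0.2). Without A7.4 embryo 2 the fitted log2 difference of KH.C9.744 was -10.54, against -18.86 with it (adjusted p = 0.0128, edgeR). At 32 cells in the a line, the level of both genes thus went with the embryo in 2 cell types. At 64 cells in the A line only A7.4 levels are given. The high A7.4 embryo 2 gave 1 left cell only, so embryo and library cannot be told apart there. The part of the embryos in these step differences was not tested.

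The last gene named for a step difference, KH.S1577.1, had the more positive change in the a line and likewise rested on few embryos. It reached 9.81 and 9.32 CPM in a7.10 embryos 1 and 7 and at most 0.610 CPM in the other 6, against 0 in all a6.5 embryos. In the A line 1 of 4 A7.4 embryos had 1.96 CPM and the others 0, against 221.6 and 309.6 CPM in A6.2 embryos 1 and 2 and at most 0.411 CPM in the other 4 (adjusted p = 0.0467, edgeR). Its call was lost in 18 of 30 alternatives, and its adjusted p was 0.0355 to 0.0913 with single embryos left out (edgeR). Neither step passed alone (adjusted p = 0.179 in the a line and 0.15 in the A line, edgeR).

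Fewer genes were detected in a7.10. When every library was thinned to 5000000 reads and the libraries of an embryo were averaged, 10309 to 10944 genes had at least 1 read in the a7.10 embryos (median 10666), against 11001 to 11338 in the a6.5 embryos (median 11221). The groups did not overlap. The means were 10662 ± 173 genes in a7.10 (SD, n = 8) and 11219 ± 138 in a6.5 (n = 5), a difference of -557 genes (two-sided exact permutation test over 1287 regroupings, p = 0.00155, the smallest this test can give; adjusted over 2 measures, p = 0.00311). With detection set at 5 reads in place of 1, the difference was -360.1 genes (exact permutation test, adjusted p = 0.00622). The 100 most read genes took 10.2 ± 0.451% of the reads in a7.10 and 9.899 ± 0.661% in a6.5, and this difference of 0.25 percentage points did not pass (exact permutation test, p = 0.426, n = 8 and 5). The amount of RNA per cell is not known from the files, and its part in the number of genes detected was not tested.

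**Figure D5:**
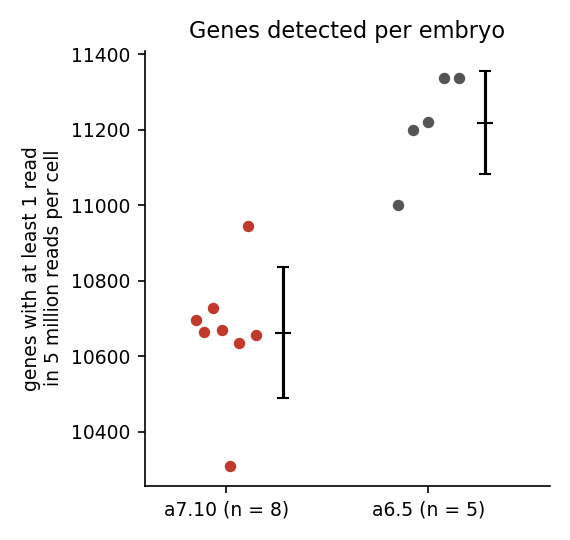
Number of genes with at least 1 read after thinning to 5000000 reads per cell (vertical axis, not from 0), with 1 point per embryo for a7.10 (red) and a6.5 (grey) and bars for the mean ± SD. The 8 a7.10 embryos lie between 10309 and 10944 genes and the 5 a6.5 embryos between 11001 and 11338.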

How the data were processed

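The deposited table holds unnormalized read counts for 15287 KH gene models, which the authors gave as whole numbers. The aligner was STAR 2.7.10a by the submitters' processing notes. The sources used here name no build, annotation, counting program or strand setting, so overlapping and near-identical genes are uncertain. Per the labels' protocols, cDNA came from single cells through a low-input template-switching kit, with tagmentation and single-end sequencing. Reads carry no molecular identifiers, so floors (3 counts) cover counting error only. All columns matched a sample, and 244 gene models had no count.

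Counts of cells of 1 type and embryo were summed. Groups were fitted with edgeR 4.0.16 in R 4.3.3 (robust quasi-likelihood test, TMM, filterByExpr) with cell type as the only factor, for a7.10 and a6.5 alone and in 2 fits of 4 types for the differences between steps. P-values were adjusted by Benjamini-Hochberg over all genes tested, with a threshold of 0.05. The edgeR p-values set differences of group means against the spread between samples of 1 type, each from its own embryo. In the fit with a7.11 and a6.6, partner cells of 1 embryo entered as separate samples unless the embryo was a block. The programs were tested on simulated counts. Limma voom (limma 3.58.1) and DESeq2 1.42.0 were alternatives, beside other scalings and filters, fewer libraries and single embryos left out. Detection was compared by exact permutation with scipy 1.17.1.

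Embryo numbers do not pair a7.10 with a6.5, whose residuals for equal numbers correlated with a mean r of -0.00855 (5 pairs). By the labels partner cells share embryos, and the mean r was 0.053 between a7.10 and a7.11 (6 pairs) and 0.306 between a6.5 and a6.6 (5 pairs).

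The cell types, comparisons, naming rule and classes were chosen with earlier results of these data known. Named genes had adjusted p under 0.05, no overlap between embryos and 5 CPM or more in the group with the higher mean, and were the largest fold change and the smallest p with over 3 counts in every embryo. For the differences between steps they were the 2 largest in each direction with at least 5 CPM in 1 of 4 groups. No KH identifier (0) was found in the RefSeq gene table, so lists of named markers were not applied.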

Additional observations from a re-analysis of the deposited data

Results flagged for a closer look

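A difference between the a-line and the A-line step was found by its own test in 1298 genes. Among the named genes it had an adjusted p (edgeR) of 0.00168 for KH.C11.315, 0.0467 for KH.S1577.1, 0.000248 for KH.C9.744, 0.000168 for KH.L22.71, 0.00658 for KH.C4.386 and 2.66e-05 for KH.L30.4. Over 30 alternatives KH.S1577.1 lost its call in 18 (adjusted p up to 0.147) and KH.C9.744 in 2 (up to 0.2), by edgeR, DESeq2 or limma voom.

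Single embryos far from the others of their group were sought in 26 groups of values. These were levels of the named genes, numbers of genes detected and shares of reads. All 5 that were found are levels of named genes. The usual rate of about 1 in 20 holds for normally distributed values. These 5 groups were mostly at or near 0, so the number found is not set against chance. KH.C9.744 stood at 107.3 CPM in A7.4 embryo 2, at 0.1169 CPM in a7.10 embryo 3 and at 0.4431 CPM in A6.2 embryo 2, with the other embryos of those groups at or near 0. KH.S1577.1 stood at 1.962 CPM in A7.4 embryo 3 and at 0 in the other 3 A7.4 embryos. KH.L22.71 stood at 0.4576 CPM in a7.10 embryo 4 and at 0 in the other 7.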

How the results depend on the processing

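The 1738 calls between a7.10 and a6.5 were 1108 with the embryo number as a replicate block, 972 of them shared, although these numbers do not pair the embryos. They were 713 with right-side libraries only, 241 against a fold threshold of 1.5, and 1321 to 1761 with single embryos left out, and the other 8 settings changed the count by less than 1.5 times. The 4 genes named for this comparison kept their direction and their call in all 24 alternatives, with adjusted p of at most 0.0096. For the difference from the partner step, 0 genes became 1 with RLE size factors, 1 with a stricter filter, 14 by DESeq2 and 0 to 4 with single embryos left out, and stayed 0 with the replicate block. The 1298 step differences from the A line were 652 with the replicate block, of which 564 were shared, and 965 to 1302 with single embryos left out. KH.C9.744 lost its call with the block and by limma voom, while KH.C11.315 and KH.L22.71 kept theirs in all 30 alternatives. Counts of calls between a7.11 and a6.6 ran from 811 to 1203 and those between A7.4 and A6.2 from 489 to 908 with single embryos left out, in fits added after the data were seen. The fewer genes detected in a7.10 held in all 16 alternatives, with differences of -611.6 to -506.5 genes with single embryos left out and of -360.1 genes with detection at 5 reads. Depth limits the scarce genes: below 5 CPM the calls had median changes beyond 5 on the log2 scale.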
